A study of Mus musculus with 9 samples.

Results

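Cytosolic ribosomal proteins are the protein part of the ribosomes that translate nuclear-encoded mRNA. Their genes were taken from the 9 gene tables by symbol, as every Rpl or Rps number with at most a final a, x or y, the stalk genes Rplp0, Rplp1 and Rplp2, and Rpsa. This gave 76 genes of the 24341 listed, of which 30 encode small-subunit and 46 large-subunit proteins. The rule leaves out Rps3a1 and Fau, among others, which also encode ribosomal proteins, and the paralogs and pseudogene rows, and these are described separately.

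The series measured polyadenylated RNA of murine embryonic fibroblasts (MEFs) of strain C57BL/6, 3 samples each labelled WT, Atm-/- and Sirt6-/-, grown in DMEM with 10% FBS. Atm encodes the kinase that responds to DNA double-strand breaks, and Sirt6 a chromatin deacetylase that works in the same repair response. The labels name wildtype, Sirt6-/-, P53-/- and Atm-/-P53-/- mice as the sources of the cells, so loss of p53 may be carried by the Atm-/- samples and is not stated for each sample. In the study's methods the Atm-/- and the Sirt6-/- MEFs are described as immortalized, and the Atm-/- MEFs also lack p53. The Atm-/- and the Sirt6-/- MEFs each came from a different outside laboratory. Genotype and the origin of the line therefore cannot be told apart in any of the comparisons. Passage and embryo are not given, and whether the 3 samples of a genotype were separate cultures is not stated, so the p-values measure only the spread between these samples, which may be technical.

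A ribosome needs 1 copy of almost every ribosomal protein, and cells keep the proteins in balance mainly by degrading those that are not assembled. In mammals the mRNAs share a run of pyrimidines at the very 5′ end, the terminal oligopyrimidine (TOP) tract, through which mTOR and the RNA-binding protein Larp1 adjust their translation together. Transcription factors such as Myc raise these genes in growing cells, and SIRT6 has been described as a partner that restrains Myc at ribosomal genes. RNA counts report the amount of mRNA and not how much of it is translated.

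The start of the mRNA could be read for 56 of the 76 genes, which had 66 entries among the RefSeq promoters of build GRCm38.p6. A C at the listed start followed by at least 4 more C or T was found in 13 of these 66 entries (19.7%) and in 2.51% of all 32851 entries. The windows below run from 10 bases before the listed start to 20 bases from it, with the pyrimidine run in capitals. They are examples from the 13 entries that meet the TOP definition at the annotated start.
Rps6 (chr4:86857348-86857377, minus strand): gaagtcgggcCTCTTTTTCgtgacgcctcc
Rpl15 (chr14:18270967-18270996, minus strand): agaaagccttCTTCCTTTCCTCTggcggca
Rps18 (chr17:33955646-33955675, minus strand): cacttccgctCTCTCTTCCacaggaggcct
Rpl35a (chr16:33056472-33056501, plus strand): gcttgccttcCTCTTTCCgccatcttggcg
Rplp2 (chr7:141447641-141447670, plus strand): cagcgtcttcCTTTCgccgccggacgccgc
Rpl38 (chr11:114668570-114668599, plus strand): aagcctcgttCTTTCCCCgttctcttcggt
A listed start that is a few bases off loses the match, so the share is a description of the annotation. The motif CTTCCG on either strand, the core bound by Ets-type factors, was in 62.1% of the 66 entries and in 16.9% of all entries. A TATAAA box on either strand was in 9.09% against 13.6%.

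A further set of sequences bears on how the counts can be read. Several ribosomal protein genes have a second row, a retrocopy or pseudogene, with nearly the same coding sequence. In the GENCODE M21 transcripts of GRCm38, Rpl34 and Rpl34-ps1 differed at 2 of 354 coding bases (99.44% identity), Rpl37 and Rpl37rt at 1 of 294 (99.66%), and Rps27 and Rps27rt at 0 of 255. The windows give the coding bases around each difference, with the base that differs in capitals.
Rpl34, coding bases 112 to 151: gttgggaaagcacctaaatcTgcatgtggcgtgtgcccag
Rpl34-ps1, coding bases 112 to 151: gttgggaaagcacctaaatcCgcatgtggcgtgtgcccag
Rpl34, coding bases 298 to 337: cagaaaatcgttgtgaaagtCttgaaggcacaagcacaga
Rpl34-ps1, coding bases 298 to 337: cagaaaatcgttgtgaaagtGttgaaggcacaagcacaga
Rpl37, coding bases 229 to 268: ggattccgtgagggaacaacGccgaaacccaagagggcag
Rpl37rt, coding bases 229 to 268: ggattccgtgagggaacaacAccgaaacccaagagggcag
Rps27 and Rps27rt, coding bases 1 to 40: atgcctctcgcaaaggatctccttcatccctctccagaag
A read inside a stretch without a capital cannot be given to one row or the other. How the submitters' counting placed such reads is not given in the sources used here.

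Library totals ran from 32187040 to 33837949 reads, at which 3 reads equal 0.0887 to 0.0932 CPM (reads scaled to the library total). Replicate 2 of WT stood apart from the other WT libraries, with a chi-square per gene of 15.4 and 14.2 against 5.12 to 6.72 for all other pairs within a genotype. Sirt6 reads were at 12.1 to 14.4 CPM in WT and at 0.124 to 0.210 CPM in Sirt6-/-. Atm reads were higher in the libraries labelled Atm-/-, at 107 to 114 CPM against 45.4 to 48.9 CPM in WT. Gene-level counts do not show which exons carry these reads. Trp53 fell from 197 to 214 CPM in WT to 24.5 to 28.8 CPM in Atm-/- and was at 277 to 284 CPM in Sirt6-/-. Summed CPM of 10 fibroblast markers was 26219 to 29068 in WT, 9689 to 9950 in Atm-/- and 19824 to 20222 in Sirt6-/-, and 9 or 10 of the 10 exceeded 10 CPM in each genotype. Summed epithelial markers (5 genes) reached 23.8 CPM in WT, 50.9 in Atm-/- and 19.7 in Sirt6-/-, blood markers (3 genes listed) 3.69, 3.16 and 2.22, endothelial markers (3 genes) 4.61, 13.1 and 0.842, muscle markers (3 genes) 1.44, 1.05 and 0.373, and neural markers (3 genes) 2.39, 37.4 and 30.4. Hbb-bt and Myog were at 0 in all libraries, and the part of any of these differences in the results below was not tested.

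The ribosomal protein genes took a larger share of the reads in both knockouts than in WT. They held 4.40, 4.58 and 4.34% of the counted reads in WT libraries 1 to 3, 4.95, 5.18 and 5.08% in Atm-/-, and 5.21, 5.22 and 5.50% in Sirt6-/-. The means were 4.44 ± 0.123% (SD, n = 3), 5.07 ± 0.115% and 5.31 ± 0.165%, and the ranges of the 3 genotypes did not overlap. An exact two-sided permutation test gave p = 0.1 for each of the 3 pairs, the smallest value that 3 against 3 libraries allow. On the same scale, library totals, genes in general also rose. In Atm-/- against WT the median log2 fold change was 0.23 for the members and 0.18 for all genes tested, so the members were near all genes. In Sirt6-/- against WT it was 0.25 and 0.11. The share is relative to all other RNA: without a spike-in, more ribosomal protein mRNA per cell and less of other mRNAs cannot be told apart, nor can fewer cells of a type and less RNA per cell. The summed fibroblast markers were lower in both knockouts than in WT, as given above, but single markers moved both ways. In Atm-/- against WT 8 of the 10 fell and 2 rose (Thy1 and Fbn1), and in Sirt6-/- against WT 6 fell and 4 rose (Col1a2, Pdgfrb, Fbn1 and S100a4), with TMM and with library totals alike. Their part in this result was not tested.

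**Figure D1:**
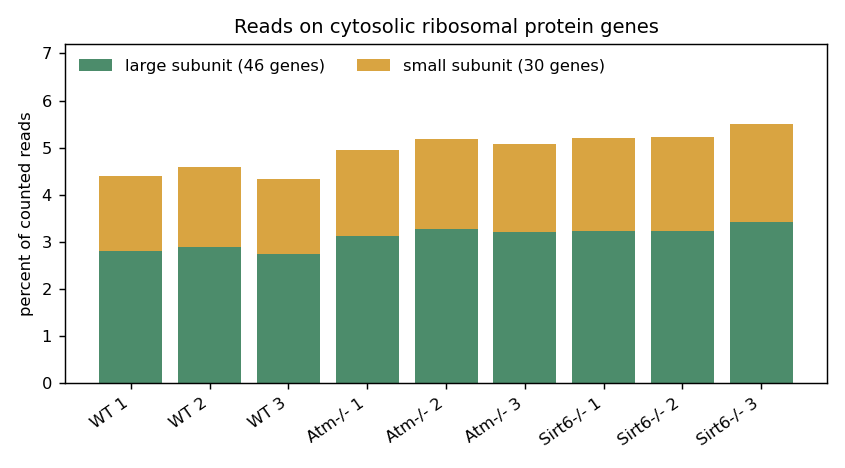
Percent of all counted reads (vertical axis) on large-subunit (green) and small-subunit (yellow) ribosomal protein genes in each of the 9 libraries, stacked bars from 0. The WT bars end between 4.34 and 4.58%, below all bars of Atm-/- (4.95 to 5.18%) and Sirt6-/- (5.21 to 5.50%).

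Small-subunit genes took 1.63 ± 0.0522% of reads in WT, 1.87 ± 0.0440% in Atm-/- and 2.02 ± 0.0507% in Sirt6-/- (SD, n = 3). Large-subunit genes took 2.81 ± 0.0747%, 3.20 ± 0.0707% and 3.29 ± 0.114%. The ratio of small-subunit to large-subunit reads was 0.569, 0.586 and 0.586 in the WT libraries, 0.585, 0.586 and 0.586 in Atm-/-, and 0.616, 0.616 and 0.606 in Sirt6-/-. Sirt6-/- libraries were thus above all others, by 0.0326 against WT and 0.0270 against Atm-/- (exact two-sided permutation p = 0.1 each, the smallest possible), whereas Atm-/- and WT overlapped (p = 0.5, same exact test). That overlap depended on the scale. Summed as RPKM, the ratio was 0.590, 0.611 and 0.611 in WT, 0.624, 0.628 and 0.627 in Atm-/-, and 0.642, 0.642 and 0.633 in Sirt6-/-, so that no genotypes overlapped (exact two-sided permutation p = 0.1 for each pair). Atm-/- less Sirt6-/- was then -0.0131. Leaving out the 15 genes that have a listed copy or paralog gave ratios of 0.637, 0.640 and 0.672 in WT, Atm-/- and Sirt6-/-.

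Levels between genes were compared per length, as the deposited RPKM (reads scaled to transcript length and library total). The mean RPKM of the 76 genes ran from 9.72 to 2901 in WT with a median of 595, and the median was 710 in Atm-/- and 762 in Sirt6-/-. Of the 100 genes with the highest mean RPKM, 43 were ribosomal protein genes in WT, 51 in Atm-/- and 47 in Sirt6-/-. The order of the genes was much the same in each genotype, with a Spearman correlation across the 76 genes of 0.952 between WT and Atm-/-, 0.949 between WT and Sirt6-/- and 0.965 between both knockouts; the genes share listed lengths and libraries, and are not independent replicates.

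Rps2, a small-subunit protein at the entry of the mRNA channel, had the highest level, 2901, 3130 and 3016 RPKM in WT, Atm-/- and Sirt6-/-. Rplp0, the base of the stalk that recruits elongation factors, followed with 1703, 2061 and 2151 RPKM. Rpl13 had 1465, 1762 and 2314 RPKM, Rpl12 1588, 1708 and 1897, and Rpl23a 1350, 1759 and 1794. Among the lowest 5, Rps15a had 61.4, 63.4 and 72.5 RPKM at a listed length of 5134 bases, although its CPM (307 to 322 in WT) lay among those of the other genes. Rps27 had only 9.72, 8.11 and 8.35 RPKM, and its retrocopy row Rps27rt had 467, 423 and 640 RPKM. Rpl37 had 146, 182 and 153 RPKM next to 133, 172 and 141 for Rpl37rt. Rpl22 had 72.4, 85.7 and 125 RPKM and Rps29 132, 183 and 192 RPKM, the remaining members of the lowest 5.

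The first comparison asked how the RNA of Atm-/- cells differs from that of WT. After TMM scaling, which sets the bulk of genes to no change, the ribosomal protein genes moved in both directions and by small amounts. The quasi-likelihood test of edgeR, run over all genes, called 29 of the 76 higher (38.2%) and 19 lower (25.0%) at an adjusted p under 0.05, where it called 34.7% of all 13283 genes tested higher and 33.6% lower. The shares of members called were thus near those of all genes. The median log2 fold change was 0.06 for the members and 0.02 for all genes, and 2 members passed a 1.5-fold change, namely Rps23 and Rpl34. Among small-subunit genes 12 rose and 6 fell, and among large-subunit genes 17 rose and 13 fell. Without WT replicate 2, 37 members were higher and 18 lower, against 35.1 and 33.1% of all genes.

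With library totals in place of TMM, every member's log2 fold change in this comparison was higher by 0.16. The median of the members was then 0.23 and that of all genes 0.18. The calls became 51 higher and 9 lower of 76, and those of all genes 46.3 and 25.0%. Both scalings called 29 members higher and 9 lower, and no member was called in opposite directions. The 9 were Rpl34, Rpl24, Rpl7, Rpl29, Rpl35a, Rplp1, Rpl31, Rpl4 and Rpsa, of which Rpsa alone is a small-subunit gene. They were named after their values were seen.

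Rps23, which lies at the decoding centre, had the highest log2 fold change in Atm-/-. It had 160, 201 and 165 CPM in the WT libraries and 327, 335 and 343 CPM in Atm-/-, so the groups did not overlap. Its log2 fold change was 0.77 ± 0.07 (SE, adjusted p = 1.84e-07). Rpl39, a small protein lining the exit tunnel, had 62.1, 78.9 and 59.2 CPM in WT and 108, 88.1 and 109 CPM in Atm-/- (log2 fold change 0.44 ± 0.10, adjusted p = 0.00126). Rps12, in the beak of the small subunit, went from 525 to 574 CPM in WT to 776 to 830 CPM in Atm-/- (0.41 ± 0.05, adjusted p = 2.05e-06). Rpl30, Rps16 and Rps14 completed the upper 6 with log2 fold changes of 0.38, 0.36 and 0.36. In each of these 6 genes every Atm-/- library was above every WT library. The highest and lowest members named here and below were picked by their fold changes, so such separation only describes them. The share of all genes that separate in this way is not given.

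Rpl34 had the lowest log2 fold change, with 204, 202 and 198 CPM in WT and 113, 125 and 118 CPM in Atm-/- (-0.93 ± 0.05, adjusted p = 4.34e-10), a value that depends on its copy as described below. Rpl24, a late-joining protein of the large subunit at the bridge to the small one, had 537, 558 and 501 CPM in WT and 422, 460 and 447 CPM in Atm-/- (-0.43 ± 0.05, adjusted p = 2.72e-06). Rpl7 had 871, 905 and 879 CPM in WT and a narrow 752 to 760 CPM in Atm-/- (-0.39 ± 0.04, adjusted p = 4.29e-07). All of these were lower in all Atm-/- libraries than in any WT library. Rpl29 and Rpl35a, the latter mutated in some families with Diamond-Blackfan anaemia, had log2 fold changes of -0.36 and -0.34. Rps27 was at -0.42 ± 0.16 (adjusted p = 0.0292) on a row of only 4.59 to 6.48 CPM, and that call was lost with library totals (-0.26, adjusted p = 0.159), without WT replicate 2 (-0.31, adjusted p = 0.13) and without any 1 of the Atm-/- libraries (adjusted p = 0.0632 to 0.0739). Among the 32 genes whose call differed between the scalings, the 4 with the lowest adjusted p under TMM were Rps25, Rps18, Rpl10a and Rpl15. They fell with TMM (-0.24, -0.24, -0.20 and -0.17) and stood at -0.08, -0.08, -0.03 and -0.00 with library totals, none of these called.

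**Figure D2:**
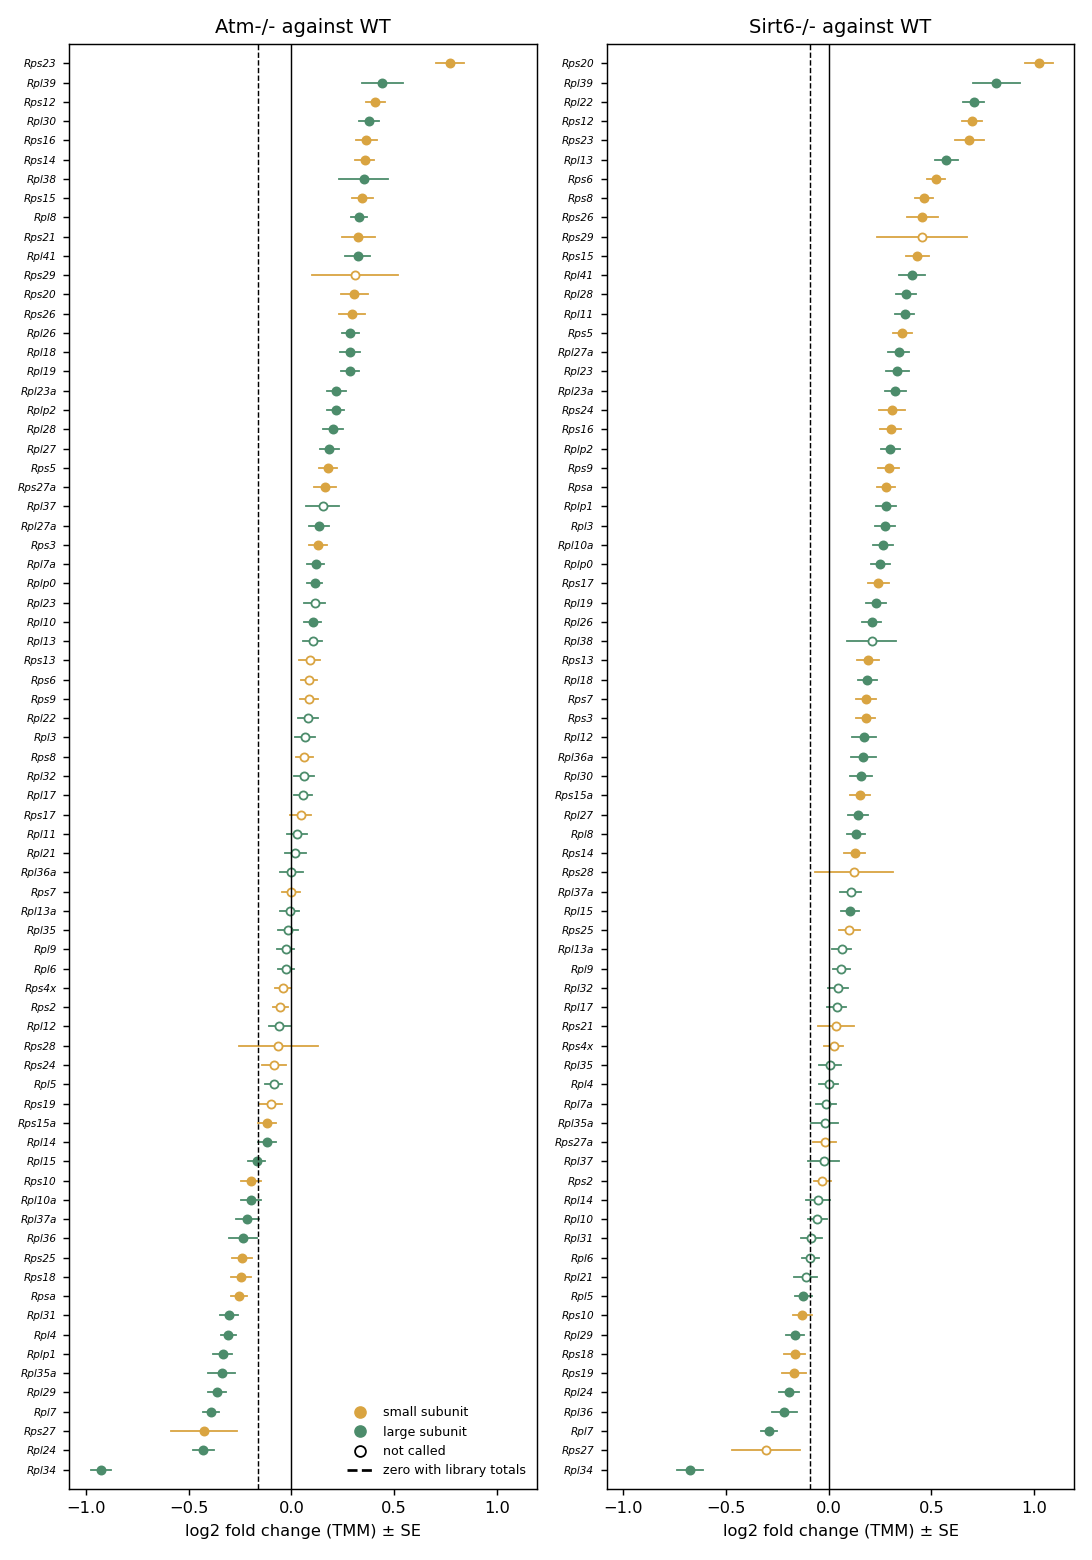
Log2 fold change with TMM scaling (horizontal axis, bars ± SE from the fit) of the genes reported here, ordered within each comparison, for small-subunit (yellow) and large-subunit (green) genes; open symbols did not pass an adjusted p of 0.05. The dashed line marks where 0 lies with library totals, 0.16 lower in Atm-/- against WT and 0.09 lower in Sirt6-/- against WT; more genes lie right of 0 in Sirt6-/-, led by Rps20, and Rpl34 is lowest in both.

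Sirt6-/- against WT asked the same of the deacetylase. Here the ribosomal protein genes were higher more often than genes in general. TMM scaling gave 42 of 76 higher (55.3%) and 9 lower (11.8%), where 39.2% of all 13206 genes tested were higher and 37.4% lower (76.6% in either direction). The median log2 fold change was 0.16 against 0.02 for all genes, and 6 members passed 1.5-fold. Small-subunit genes counted 18 higher and 3 lower, and large-subunit genes 24 higher and 6 lower. Without WT replicate 2 the calls were 47 higher and 11 lower, and those of all genes 38.6 and 37.2%.

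Library totals moved each member up by 0.09 in Sirt6-/- against WT, to a median of 0.25 with 0.11 for all genes. They called 51 members higher and 2 lower (43.9 and 32.7% of all genes, 76.6% in either direction), and all 42 that were higher with TMM were among the 51. The 2 that were lower with both were Rpl34 and Rpl7, and no small-subunit gene was called lower with library totals.

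Rps20, a protein of the small-subunit head, rose most in Sirt6-/-. It had 208, 258 and 234 CPM in WT and 518, 521 and 475 CPM in Sirt6-/-, a log2 fold change of 1.02 ± 0.07 (adjusted p = 3.14e-09), the only member to pass 2-fold in any of the 3 comparisons. Rpl22, an RNA-binding protein of the large subunit that T-cell development depends on, had 155, 169 and 156 CPM in WT and 269, 279 and 284 CPM in Sirt6-/- (0.71 ± 0.05, adjusted p = 6.22e-09). Neither gene's groups overlapped. Rpl39 rose by 0.81 ± 0.11 (adjusted p = 1.35e-05), with 137, 137 and 101 CPM in Sirt6-/-, the third library well below the others. Rps12 had 913 to 976 CPM (0.70 ± 0.05, adjusted p = 6.24e-09) and Rps23 290 to 307 CPM (0.68 ± 0.07, adjusted p = 5.29e-07). Rpl13, among the most abundant members, had 1207, 1102 and 1116 CPM in WT and 1741, 1733 and 1947 CPM in Sirt6-/- (0.57 ± 0.05, adjusted p = 2.07e-07). For each of these genes, again picked as the highest, all Sirt6-/- libraries were above all WT libraries. Rps6, the target of the S6 kinases and a TOP gene shown above, rose by 0.52 ± 0.04 (adjusted p = 5.79e-08), a gene named after its value was seen.

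Rpl34 was lowest again in Sirt6-/-, with 128, 124 and 150 CPM (-0.68 ± 0.06, adjusted p = 1.97e-07). Rpl7 had 774, 759 and 778 CPM against 871 to 905 CPM in WT (-0.29 ± 0.04, adjusted p = 1.39e-05). These 2 genes did not overlap between the genotypes. Rpl36, Rpl24 and Rps19 fell by 0.22, 0.19 and 0.17 with TMM and were at -0.13, -0.10 and -0.08 with library totals, none called. Rps19, the gene most often mutated in Diamond-Blackfan anaemia, had 159 to 168 CPM in Sirt6-/- and 157 to 183 CPM in WT, so its groups overlapped, and the call was lost without WT replicate 3 (adjusted p = 0.0505) or Sirt6-/- replicate 3 (adjusted p = 0.0609). Rps27 was at -0.31 ± 0.16 (adjusted p = 0.105). Rpl29 and Rps18 likewise fell with TMM alone, by 0.16 and 0.17, and stood at -0.07 and -0.08 with library totals.

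**Figure D3:**
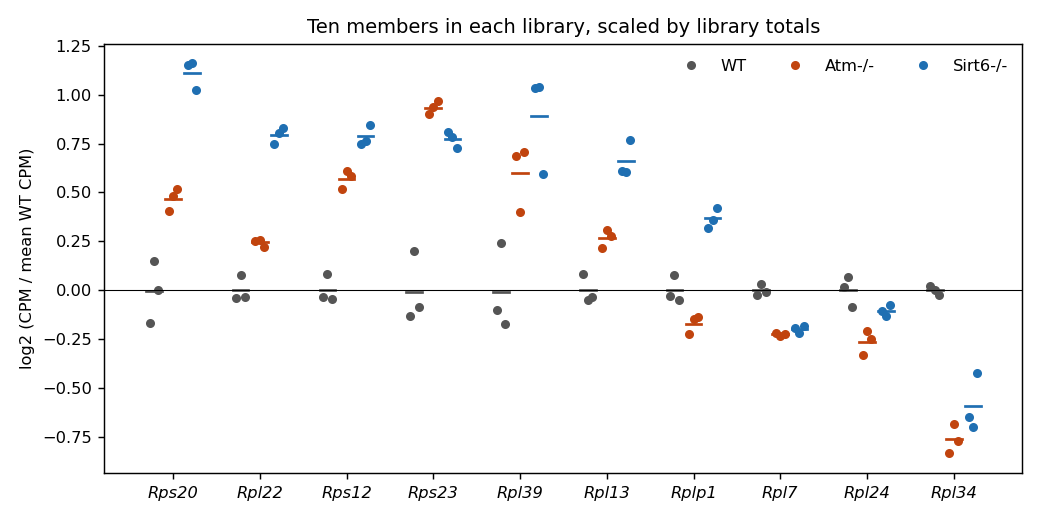
CPM of 10 ribosomal protein genes in each library as log2 of the ratio to the WT mean (vertical axis, library totals), points for libraries and short lines for the mean of each genotype (WT grey, Atm-/- orange, Sirt6-/- blue). Rps20, Rpl22, Rpl13 and Rplp1 are highest in Sirt6-/-, Rps23 is high in both knockouts, and Rpl7 and Rpl34 are below WT in both.

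The knockouts were also compared directly. Both comparisons above share the WT libraries, so their values are given side by side and their likeness is not read as a result. In Atm-/- against Sirt6-/-, 15 of 76 members were higher (19.7%) and 37 lower (48.7%) with TMM, where 38.0% of all 13460 genes tested were higher and 37.8% lower. The median was -0.10 against 0.00 for all genes. Small-subunit genes counted 6 higher and 13 lower, large-subunit genes 9 higher and 24 lower. With library totals, which moved each member up by 0.06, the counts were 22 higher and 32 lower (41.2 and 34.8% of all genes) and the median -0.04 against 0.06.

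Rps20 had 309, 325 and 334 CPM in Atm-/- and 475 to 521 CPM in Sirt6-/- (log2 fold change -0.70 ± 0.04, adjusted p = 3.37e-12). Rpl22 was at 187 to 191 CPM in Atm-/-, which gave -0.61 ± 0.04 (adjusted p = 1.26e-11). Against WT the same genes were at 0.31 ± 0.07 (adjusted p = 0.000749) and 0.08 ± 0.05 (adjusted p = 0.146) in Atm-/-. In these genes Atm-/- lay between WT and Sirt6-/-.

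Rplp1 and Rpsa moved to opposite sides of WT. Rplp1, an acidic stalk protein, had 645, 696 and 637 CPM in WT, 564, 595 and 599 CPM in Atm-/-, and 824, 847 and 882 CPM in Sirt6-/-. It fell by 0.33 in Atm-/- (SE 0.05, adjusted p = 1.47e-05), rose by 0.28 in Sirt6-/- (SE 0.05, adjusted p = 0.000104), and differed by -0.60 ± 0.04 between the knockouts (adjusted p = 7.44e-12). Rpsa, the laminin receptor protein at the mRNA exit of the small subunit, had 1974 to 2094 CPM in WT, 1873 to 1936 in Atm-/- and 2572 to 2664 in Sirt6-/-. It was at -0.25 ± 0.04 (adjusted p = 4.09e-05), 0.28 ± 0.04 (adjusted p = 2.65e-05) and -0.52 ± 0.03 (adjusted p = 3.13e-12) in the same order. The 3 genotypes did not overlap for either gene, and the calls of both held with library totals. Rpl13 (-0.45) and Rpl10a (-0.45) completed the lowest 6.

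At the other end of Atm-/- against Sirt6-/- the differences were smaller. Rps21 was at 0.30 ± 0.07 (adjusted p = 0.000346), and Rps14, Rpl30, Rpl8 and Rps27a were at 0.25, 0.24, 0.21 and 0.20. Rpl8 had 1529, 1581 and 1563 CPM in Atm-/-, 1285, 1283 and 1308 in Sirt6-/- and 1063 to 1129 in WT, so that Atm-/- was above both other genotypes. Rplp0, Rpl7 and Rps26 were called lower in Atm-/- with TMM (-0.12, -0.09 and -0.14) and not with library totals (-0.06, -0.03 and -0.08). Without Sirt6-/- replicate 3 none of these 3 was called (-0.07, -0.07 and -0.04, adjusted p = 0.055, 0.0674 and 0.474), and Rpl7 and Rps26 also lost the call without other libraries, Rpl7 without Sirt6-/- replicate 1 or Atm-/- replicate 2 or 3 (adjusted p = 0.0517 to 0.066) and Rps26 without Atm-/- replicate 1 or 3 (adjusted p = 0.201 and 0.129).

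Beside the lower Rpl34 row, the row of its copy was higher in both knockouts. Rpl34-ps1 had 196, 197 and 193 CPM in WT, 285, 309 and 272 CPM in Atm-/-, and 359, 360 and 389 CPM in Sirt6-/-. Its log2 fold change was 0.40 ± 0.05 in Atm-/- (adjusted p = 5.29e-06) and 0.83 ± 0.05 in Sirt6-/- (adjusted p = 6.37e-10). Of the reads on both rows, the Rpl34 row held 50.7 ± 0.275% in WT, 29.1 ± 0.981% in Atm-/- and 26.6 ± 1.12% in Sirt6-/- (SD, n = 3). Their sum was 397 ± 5.12, 407 ± 23.5 and 503 ± 31.3 CPM. Fitted with TMM as 1 gene, an alternative added after the data were seen, Rpl34 was at -0.13 ± 0.05 in Atm-/- (adjusted p = 0.0265). With library totals the mean summed CPM was not lower in Atm-/- than in WT, so that fall depended on TMM. In Sirt6-/- the summed gene was at 0.25 ± 0.05 (adjusted p = 0.000306), in the opposite direction to the row alone.

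The Rps27 row was a small part of its pair. It held 3.35 ± 0.208% of the reads on Rps27 and Rps27rt in WT, 3.13 ± 0.395% in Atm-/- and 2.14 ± 0.177% in Sirt6-/-. Rps27rt had 164, 176 and 145 CPM in WT, 147, 129 and 162 in Atm-/-, and 228, 235 and 201 in Sirt6-/-. Summed, Rps27 was at -0.31 ± 0.08 in Atm-/- (adjusted p = 0.00311) and 0.35 ± 0.07 in Sirt6-/- (adjusted p = 0.000461), the latter again opposite in sign to the row alone. For Rpl37 the row held 57.7 to 58.8% of the reads in every genotype, and the sum was at 0.18 ± 0.10 (adjusted p = 0.147) in Atm-/- and -0.02 ± 0.10 (adjusted p = 0.877) in Sirt6-/-.

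**Figure D4:**
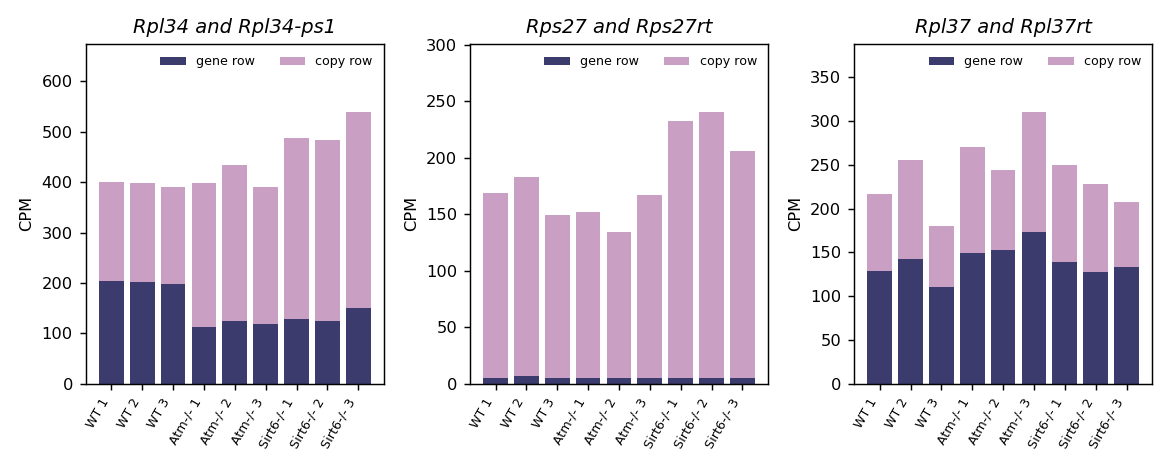
CPM on the gene row (dark) and on its copy row (light), stacked, for Rpl34, Rps27 and Rpl37 in each library. The dark part of Rpl34 is lower in both knockouts while the whole bar is not, the Rps27 row is a thin strip in all libraries, and the Rpl37 split is alike across genotypes.

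In all, 9 rows whose symbol carries a pseudogene or retrocopy suffix belonged to 8 of the members. Rps15a-ps6 rose from 0.207 to 0.692 CPM in WT to 4.68 to 5.65 CPM in Atm-/- (log2 fold change 3.33 ± 0.31, adjusted p = 2.41e-07) and 9.01 to 13.5 CPM in Sirt6-/- (4.45 ± 0.29, adjusted p = 2.38e-09). Rps15a-ps4 fell, from 12.7 to 13.4 CPM to 8.75 to 10.4 CPM (-0.60 ± 0.11, adjusted p = 0.00026) and 2.26 to 3.04 CPM (-2.34 ± 0.15, adjusted p = 1.91e-09). Rps15a itself held 95.6 to 96.5% of the reads on the 3 rows and was at -0.12 and 0.15. Rps19-ps3 reached at most 1.12 CPM, and the copies of Rpl14, Rpl31 and Rplp2 at most 0.752 CPM.

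The members were next grouped by place in the ribosome, and are read beside the shares of all genes called. With TMM these were 34.7% higher and 33.6% lower in Atm-/- against WT, and 39.2% and 37.4% in Sirt6-/- against WT. With library totals they were 46.3% and 25.0% in the first comparison, and 43.9% and 32.7% in the second. Of the stalk genes Rplp0, Rplp1, Rplp2 and Rpl12, 2 rose and 1 fell in Atm-/- against WT, and 4 of 4 rose in Sirt6-/- against WT, by 0.17 to 0.30. Of the 7 genes around the mouth of the exit tunnel (Rpl17, Rpl19, Rpl23a, Rpl26, Rpl31, Rpl35, Rpl39), 4 rose in each knockout, and Rpl31 fell in Atm-/- by 0.30; with library totals 6 rose in Atm-/- and 5 in Sirt6-/-. Of the 5 genes along the mRNA path (Rps2, Rps3, Rpsa, Rps26, Rps28), 2 rose and 1 fell in Atm-/- (3 and 1 with library totals), and 3 rose in Sirt6-/-. Rps26, whose protein touches the mRNA upstream of the start codon, was among the risers in both (0.30 and 0.46).

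Rpl5 and Rpl11, which carry 5S RNA and, when free, bind Mdm2, parted in Sirt6-/-. Rpl11 had 401, 422 and 392 CPM in WT, 442, 483 and 463 in Atm-/-, and 538, 566 and 567 in Sirt6-/-. With TMM its log2 fold change was 0.03 (adjusted p = 0.620) in Atm-/- and 0.37 (adjusted p = 3.86e-06) in Sirt6-/-. Rpl5 was at -0.09 (adjusted p = 0.0638) and -0.12 (adjusted p = 0.0148), the latter not called with library totals. In Atm-/- against WT, TMM called 0 of these 2 genes higher and library totals called 1. Of the genes these proteins act on, Mdm2 fell by 0.41 in Atm-/- and 1.11 in Sirt6-/-, Mdm4 by 0.54 and 0.66, and the p53 target Cdkn1a by 1.16 and 2.30. Trp53 itself was at -3.09 in Atm-/- and 0.35 in Sirt6-/- (all called). Of the 18 members that are known Diamond-Blackfan anaemia genes, 4 rose and 5 fell in Atm-/- (median -0.04), and 9 rose and 3 fell in Sirt6-/- (median 0.13), beside the shares of all genes given above. With library totals 8 rose and 2 fell in Atm-/- (median 0.12, and 0.18 for all genes), and 10 rose and 0 fell in Sirt6-/- (median 0.22, and 0.11 for all genes). Of all genes 46.3% rose and 25.0% fell in Atm-/- on that scale, and 43.9% and 32.7% in Sirt6-/-.

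Fau and Rps3a1, which the symbol rule misses, were read as well, with the member Rps27a set beside Fau. Fau, made as a fusion to a ubiquitin-like protein, rose in both knockouts, by 0.46 and 0.50 in Atm-/- and Sirt6-/- against WT. Rps27a, made as a fusion to ubiquitin, rose in Atm-/- by 0.16 (adjusted p = 0.017) and was at -0.02 (adjusted p = 0.762) in Sirt6-/-. With TMM Rps3a1 was at -0.13 (adjusted p = 0.00786) in Atm-/- and 0.27 (adjusted p = 5.26e-05) in Sirt6-/-. Its mean CPM, scaled by library totals, was 1016 in WT and 1040 in Atm-/-, so the lower value there depended on TMM.

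Of 9 related rows listed as paralogs, which include the copy Rps27rt and the row Rps4l, 6 were tested. With TMM 1 rose and 3 fell in Atm-/- against WT, and 2 rose and 4 fell in Sirt6-/- against WT. Of all genes 34.7% rose and 33.6% fell in the first comparison, and 39.2% and 37.4% in the second. With so few rows the counts are not read as a result about the paralogs. Rpl22l1, which can take the place of Rpl22, had 35.5, 54.2 and 44.2 CPM in WT, 36.3, 30.8 and 31.2 in Atm-/-, and 26.8 to 30.04 in Sirt6-/- (-0.61 and -0.75, adjusted p = 0.000418 and 3.75e-05). In Sirt6-/- Rpl22 rose while Rpl22l1 fell, and the WT and Sirt6-/- libraries did not overlap for either gene. Rps27l, a p53-induced paralog of Rps27, fell by 0.37 in Atm-/- and 0.94 in Sirt6-/-. It had 94.6 to 107 CPM in WT, 82.7 to 89.9 in Atm-/- and 52.8 to 58.9 in Sirt6-/-. Rpl7l1 and Rpl36al fell in Sirt6-/- by 0.32 and 0.20 and were at -0.09 and -0.05 in Atm-/-. Rps4l, a row related to Rps4x that GENCODE M21 types as a transcribed processed pseudogene, had 0, 2 and 0 reads in WT, 99, 95 and 97 in Atm-/-, and 50, 46 and 68 in Sirt6-/-. Rpl10l had 0 reads in all libraries, and Rpl3l and Rpl39l at most 0.211 and 0.0302 CPM.

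Other TOP mRNAs, mainly of translation factors, were set beside the ribosomal proteins. Of 19 such genes, 11 rose and 5 fell in Atm-/- against WT (median 0.15), and 7 rose and 8 fell in Sirt6-/- against WT (median 0.06). Of all genes 34.7% rose and 33.6% fell in the first comparison and 39.2% and 37.4% in the second, so the Sirt6-/- counts were near those of all genes. With library totals 14 rose and 2 fell in Atm-/-, and 10 rose and 6 fell in Sirt6-/-. All genes shifted as well, to 46.3% higher and 25.0% lower in Atm-/- and 43.9% and 32.7% in Sirt6-/-. Eef2 rose in both (0.26 and 0.22), as did Eif3e (0.41 and 0.69) and Eif3h (0.41 and 0.32). Eef1a1, which delivers aminoacyl-tRNA, fell by 0.13 in Atm-/- and rose by 0.25 in Sirt6-/-, though the first call was lost with library totals (0.03, adjusted p = 0.392). Npm1, Hnrnpa1 and Nap1l1 went the other way, up by 0.29, 0.40 and 0.35 in Atm-/- and down by 0.49, 0.41 and 0.22 in Sirt6-/-. Vim is also a fibroblast marker and fell in both, by 0.55 and 0.56.

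Of 12 genes that act on the translation or stability of TOP mRNAs, 5 rose and 4 fell in Atm-/- against WT, and 4 rose and 7 fell in Sirt6-/- against WT. The Atm-/- counts were near the shares of all genes and became 7 higher and 2 lower with library totals, whereas those of Sirt6-/- stayed at 4 and 7. Library totals called 46.3% of all genes higher and 25.0% lower in Atm-/-, and 43.9% and 32.7% in Sirt6-/-. Larp1 had 348, 370 and 358 CPM in WT, 463, 454 and 468 in Atm-/-, and 265, 248 and 240 in Sirt6-/-. Its log2 fold change was 0.20 ± 0.04 (adjusted p = 0.000564) in Atm-/- and -0.60 ± 0.05 (adjusted p = 2.74e-08) in Sirt6-/-, and the 3 genotypes did not overlap. Larp4 was at 0.23 and -0.55 and Eif4e, the cap-binding protein, at 0.19 and -0.32. Mtor rose by 0.41 and 0.43, Rptor by 0.37 and 0.19, while Rheb, the activator of mTOR, fell (-0.44 and -0.86), as did Eif4ebp1, the translational repressor that mTOR acts on (-0.66 and -0.38).

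The chaperones that escort single ribosomal proteins were lower in Sirt6-/- than in both other genotypes. Of 7 escorts, 3 rose and 1 fell in Atm-/- against WT (median 0.11), whereas 7 of 7 fell in Sirt6-/- against WT (median -0.53), with 6 of the 7 still called with library totals. In Atm-/- library totals gave 5 higher and 0 lower. Of all genes TMM called 34.7% higher and 33.6% lower in Atm-/-, and 37.4% lower in Sirt6-/-. With library totals these shares were 46.3%, 25.0% and 32.7%. In Atm-/- against Sirt6-/- all 7 were higher with TMM and with library totals, where 38.0% and 41.2% of all genes were higher. Pdcd2, the escort of Rps2, had 28.3, 33.5 and 30.4 CPM in WT, 32.7, 31.5 and 28.5 in Atm-/-, and 10.96, 13.5 and 13.0 in Sirt6-/-. Its log2 fold change was -1.39 ± 0.10 in Sirt6-/- against WT (adjusted p = 8.79e-09). Its client Rps2 was at -0.03 (adjusted p = 0.509) in the same comparison. Grwd1, which binds Rpl3, had 93.8, 100 and 99.4 CPM in Atm-/- and 43.8, 42.2 and 39.5 in Sirt6-/-, with 49.4 to 65.4 in WT. Grwd1 was at 0.62 in Atm-/- and -0.53 in Sirt6-/-, with Rpl3 at 0.07 and 0.27. Ltv1 was at 0.21 and -0.56, Heatr3, the importer of Rpl5, at -0.23 and -0.56, Tsr2, which hands over Rps26, at 0.06 and -0.33, Bccip at 0.11 and -0.30, and Aamp at 0.15 and -0.19.

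The members with the shortest listed transcripts varied most between libraries of 1 genotype. The 5 under 400 bases (Rpl38, Rps28, Rps29, Rps21 and Rpl39) had a median within-genotype SD of 0.24 on the log2 scale, with a range of 0.16 to 0.46. The other 71 members had a median of 0.06 and reached at most 0.13. Only 3 rows under 400 bases outside the members exceeded 30 CPM, among them the copy Rps27rt, with a median SD of 0.14. The 6459 longer genes above that level outside the members had 0.07. Rps29 had 41.6, 74.2 and 38.8 CPM in WT, 81.4, 50.6 and 82.8 in Atm-/-, and 93.5, 81.4 and 50.8 in Sirt6-/-. Rps28 had 95.6, 151 and 86.7 CPM in WT, 126, 83.5 and 147 in Atm-/-, and 144, 152 and 89.1 in Sirt6-/-. In both genes WT replicate 2 was high, Atm-/- replicate 2 and Sirt6-/- replicate 3 were low, and the genotypes overlapped. WT replicate 2 was above the other WT libraries by a median of 0.49 (log2) over these 5 genes and 0.07 over the other 71. None of the 3 comparisons called Rps28 or Rps29 with TMM, at standard errors of 0.16 to 0.22.

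**Figure D5:**
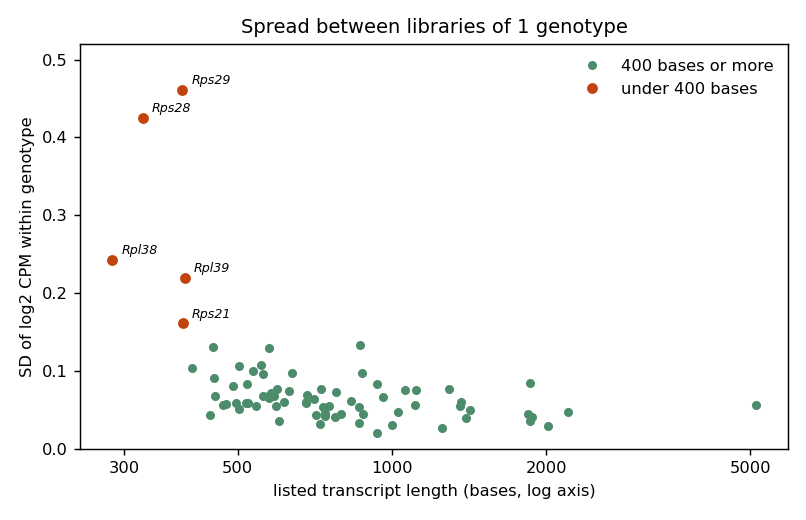
SD of log2 CPM between libraries of 1 genotype, pooled over the 3 genotypes (vertical axis), against listed transcript length in bases (log axis) for the 76 genes. The 5 genes under 400 bases (orange, named) lie between 0.16 and 0.46, above all 71 others (green, at most 0.13).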

How the data were processed

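The 9 samples (3 per genotype, by their labels) each had 1 table with a read count and an RPKM value per gene symbol. The deposited read counts are whole numbers made by the authors on build mm10, per the submitters' processing notes. Aligner, counting, strand and the treatment of multi-mapping reads are not given in the sources used here. The deposited RPKM values are these counts scaled to the listed longest transcript and to the library total, and served to compare levels between genes. CPM was computed from library totals.

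Counts were tested over all genes with edgeR 4.0.16 (R 4.3.3, quasi-likelihood F-test, filterByExpr, TMM, the 6 libraries of each pair) and Benjamini-Hochberg adjustment at 0.05. The fit was tested on simulated data. Alternatives were library totals, the size factors and the Wald test of DESeq2 1.42.0, edgeR's exact test, other filters, a replicate block, 1 fit of all libraries, leaving out each library, and rows summed with their copies, the last chosen after seeing the data. At least 3 reads were taken as detection, and counting limits cover counting error only.

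The members and gene lists were chosen with earlier results of these data known. Genes were named by rule: per comparison the 6 highest and 6 lowest members, up to 4 whose call differed between TMM and library totals, the 5 highest and lowest by RPKM, and the listed genes. A few of the genes so named are not reported here. Sequences came from RefSeq promoters (GRCm38.p6) and GENCODE M21 transcripts, coordinates are 1-based, and motifs were searched in windows of 300 bases, or from the listed start for TOP tracts. The same replicate number did not pair libraries, and all pairs of libraries within a genotype differed beyond sampling noise.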

Additional observations from a re-analysis of the deposited data

How the results depend on the processing

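Counts of members called and their medians kept within the limits used here (1.5 times, and the spread between libraries) in all alternatives except library totals. Those gave 51 higher and 9 lower with a median of 0.23 in Atm-/- against WT, 2 lower with a median of 0.25 in Sirt6-/- against WT, and a median of -0.038 in Atm-/- against Sirt6-/-. Leaving out 1 library at a time gave 23 to 37 members higher and 15 to 20 lower in Atm-/- against WT, 36 to 47 and 7 to 11 in Sirt6-/- against WT, and 12 to 15 and 34 to 38 in Atm-/- against Sirt6-/-. Libraries of the same number did not deviate together (correlations of -0.0471 to 0.0298), so the numbers do not pair them. A replicate block gave 28 higher and 19 lower, 43 and 9, and 15 and 38 in the same order. Without the 15 genes that have copies or paralogs the share of reads was 3.80, 4.38 and 4.61% in WT, Atm-/- and Sirt6-/- and the ratio of small to large subunit 0.637, 0.640 and 0.672. Summed RPKM gave 12.6, 13.9 and 14.5% and ratios of 0.604, 0.626 and 0.639. Among single genes 2 reversed, both in Sirt6-/- against WT with copies summed, Rpl34 to 0.25 and Rps27 to 0.35. Why the gene rows and copy rows moved differently was not tested. Of 779 values for single genes, 740 kept their direction and side of the threshold and 37 lost the call, mostly with library totals or without 1 library. With 3 libraries a group, members not called may still differ by small amounts.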
